A study of Mus musculus with 12 samples.

Results

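The nuclear-encoded subunits of the mitochondrial respiratory chain were examined by complex in mouse cardiac muscle, where they were measured on Affymetrix MG_U74Av2 arrays. Members were the probe sets annotated with exactly 1 symbol that started with Ndufa, Ndufb, Ndufc, Ndufs, Ndufv, Sdha to Sdhd, Uqcr, Cox4 to Cox8 or Atp5, plus Cyc1 and Cycs. These were 103 of 12488 probe sets, for 75 of 8252 genes: 31 genes of complex I, 6 of complex II, 8 of complex III, 1 for cytochrome c, 15 of complex IV and 14 of complex V. The symbol prefixes also took in 5 genes that are no subunits but assembly or supercomplex factors (Ndufaf1, Ndufaf4, Sdhaf1, Sdhaf2 and Cox7a2l), and 10 further probe sets that name a subunit together with other genes were left out.

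Hearts came from male NMRI mice of 10 to 15 weeks of age. The diabetic trained mice had received a single injection of streptozotocin at 180 mg/kg and ran on a treadmill for 1 h a day on 5 days a week at 21 m/min and an incline of 2.5 degrees. The diabetic sedentary mice received the same injection and did not run, the healthy trained mice received buffer and ran, and the healthy sedentary mice received buffer and did not run. Each condition was sampled at weeks 1, 3 and 5, with 1 array for each condition and week, 12 in all. Trained mice were killed 24 h after their last bout. Each array held RNA of 5 pooled mice, and the model is a chemically induced diabetes of adult males only. No combination of condition and week was repeated. A p-value therefore rests on the spread between pools that is left after condition and week are fitted. A difference between conditions that changes over the weeks counts into that spread.

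The respiratory chain passes electrons from NADH (complex I) and succinate (complex II) through ubiquinone, complex III and cytochrome c to oxygen at complex IV, and ATP synthase (complex V) uses the proton gradient that results. Most subunits are encoded in the nucleus, and the heart, which makes nearly all of its ATP by oxidation, holds these transcripts in abundance. Several complex IV subunits exist as a muscle form (Cox6a2, Cox7a1 and Cox8b in mouse) and a form found in most tissues (Cox6a1, Cox7a2 and Cox8a). The core subunits encoded in mitochondrial DNA were not analysed here. Nuclear respiratory factor 1 (NRF1), CREB and ETS factors such as GABP are known to bind the promoters of many of these genes.

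The promoters of 5 genes whose signals the results turn on are shown, each from 250 bases before to 50 bases after the gene's start (RefSeq, GRCm38.p6). Cycs (chr6:50566520-50566819, minus strand), Ndufa6 (chr15:82354242-82354541, minus strand), Ndufb3 (chr1:58586147-58586446, plus strand) and Ndufv1 (chr19:4012706-4013005, minus strand) differed between weeks 5 and 1, and Cox7a1 (chr7:30183921-30184220, plus strand) had the smallest p for diabetes. Capitals mark exact matches, on either strand, to the NRF1 core GCATGCGC, to TGACG, the core of the cyclic AMP response element, or to the ETS motif CCGGAAG, which was found in none of the 5.
Cycs: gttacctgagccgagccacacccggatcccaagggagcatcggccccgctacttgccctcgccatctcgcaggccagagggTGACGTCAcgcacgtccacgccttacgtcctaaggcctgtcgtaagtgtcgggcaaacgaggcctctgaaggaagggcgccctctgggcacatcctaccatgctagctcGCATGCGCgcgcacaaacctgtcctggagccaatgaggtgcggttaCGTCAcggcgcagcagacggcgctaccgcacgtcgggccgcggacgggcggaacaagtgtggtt
Ndufa6: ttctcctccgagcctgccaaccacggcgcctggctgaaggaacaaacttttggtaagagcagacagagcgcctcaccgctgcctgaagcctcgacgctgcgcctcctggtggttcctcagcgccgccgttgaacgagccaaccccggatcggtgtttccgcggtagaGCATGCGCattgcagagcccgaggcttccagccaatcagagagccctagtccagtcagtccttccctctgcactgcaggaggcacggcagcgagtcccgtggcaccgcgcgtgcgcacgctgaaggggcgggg
Ndufb3: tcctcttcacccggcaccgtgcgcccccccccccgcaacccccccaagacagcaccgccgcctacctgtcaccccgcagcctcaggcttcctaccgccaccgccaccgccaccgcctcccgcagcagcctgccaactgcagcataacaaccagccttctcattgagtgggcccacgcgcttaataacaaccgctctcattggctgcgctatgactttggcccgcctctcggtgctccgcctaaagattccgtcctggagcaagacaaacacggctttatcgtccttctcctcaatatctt
Ndufv1: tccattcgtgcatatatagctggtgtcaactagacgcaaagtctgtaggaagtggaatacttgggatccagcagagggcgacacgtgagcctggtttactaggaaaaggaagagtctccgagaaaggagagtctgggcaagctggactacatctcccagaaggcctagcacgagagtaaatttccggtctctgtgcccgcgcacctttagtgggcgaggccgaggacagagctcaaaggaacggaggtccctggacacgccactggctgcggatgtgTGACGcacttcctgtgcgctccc
Cox7a1: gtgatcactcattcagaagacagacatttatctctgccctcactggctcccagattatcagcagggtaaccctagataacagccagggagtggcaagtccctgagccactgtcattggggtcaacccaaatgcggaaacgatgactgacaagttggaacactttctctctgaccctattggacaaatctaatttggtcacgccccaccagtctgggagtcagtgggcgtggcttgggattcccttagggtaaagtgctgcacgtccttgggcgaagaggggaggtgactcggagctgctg
Cycs held the NRF1 core 60 bases before its start and the full response element TGACGTCA 169 bases before it, with a further TGACG match 14 bases before. Ndufa6 held the NRF1 core 83 bases before its start, Ndufv1 held TGACG 27 bases after its start, and Ndufb3 and Cox7a1 held none of these letters in the window. A RefSeq promoter was found for 61 of the 75 genes. The NRF1 core was in 11 of these 61 (18%), against 3.05% of 27025 genes with a promoter. CCGGAAG was in 18 (29.5%) against 9.93%, TGACG in 23 (37.7%) against 23.0%, TGACGTCA, which contains TGACG, in 3 (4.92%) against 2.03%, GGGCGG in 31 (50.8%) against 38.2%, and CCAAT in 26 (42.6%) against 41.1%. The 11 genes with the NRF1 core were Atp5g2, Atp5k, Atp5l, Cox6a1, Cycs, Ndufa6, Ndufa8, Ndufaf4, Sdhb, Uqcr11 and Uqcrc1. A match of letters is a description of the sequence and was not tested for binding.

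A probe set was tested where its mean log2 signal reached the 40th percentile of the table, a geometric mean signal of 11.6, which left 7453 probe sets in all. Of the members, 83 probe sets of 70 genes passed, 29 genes of complex I, 6 of II, 8 of III, 1 for cytochrome c, 13 of IV and 13 of V. The 5 genes with no tested probe set were Ndufa12, Ndufc2, Cox5a, Cox8a and Atp5j2, and Cox8a, the common form of its subunit, had signals between 1.1 and 8.3 on all 12 arrays. Signals are on the scale of the authors' MAS5 software, on which a probe set is compared only with itself. Where a gene had several tested probe sets, which held for 11 genes, the brightest stands for it. By mean signal, 60 of the 70 genes were among the brightest 1864 of the tested probe sets, so that these 1864 are given below as a second background. Over the 12 arrays the median standard deviation of a member was 0.26 on the log2 scale, against 0.40 for all tested probe sets.

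The array of diabetic trained mice at week 3 stood apart from the other 11. Its median signal was 25.4, against 16.6 to 20.4, and its mean correlation with the other arrays was 0.855, against 0.940 to 0.954. It was also the only array of its chip lot and scan day. Week 1 and the other 3 arrays of week 3 shared a chip lot, with a scan day for each week, and week 5 had a lot and a scan day of its own, so that week 5, its lot and its day cannot be told apart. Every condition ran on its own fluidics module, so that condition and module cannot be told apart either. The ratio of the 3′ to the 5′ probe set of Gapdh, a measure of RNA integrity, lay between 1.03 and 1.25 on all 12 arrays, and that of beta-actin between 1.70 and 2.52. The beta-actin ratio was 2.11 to 2.52 on the week 5 arrays. At week 1 it was 2.46 in healthy trained hearts and 1.70 to 1.96 in the other conditions. All 11 cardiomyocyte markers measured were above the highest absent control, as the label cardiac muscle requires.

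Most of the respiratory chain genes were low on that array. On the scale of log2 signal minus the gene's mean over 12 arrays, the median gene stood at −0.48 there, and complexes I to V at −0.56, −0.32, −0.54, −0.44 and −0.50. Cytochrome c was not low there, at −0.01. On the other 11 arrays the median gene lay between −0.13 and 0.21. Bright probe sets in general were low on this array: the difference of week 3 from the mean of weeks 1 and 5 in diabetic trained hearts had a median of 0.62, 0.22, −0.09 and −0.45 in the 4 classes of equal size of all tested probe sets, from the dimmest to the brightest. The members' median was −0.60, and −0.66 for the 60 in the brightest class. After cyclic loess, which removes differences that run with brightness, the median member of diabetic trained against healthy trained hearts at week 3 stood at 0.03, against −0.44 on the deposited scale. Member counts, complex medians and values of single members that this array moved by over 1.5 times or across the threshold are therefore given with and without it.

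**Figure D1:**
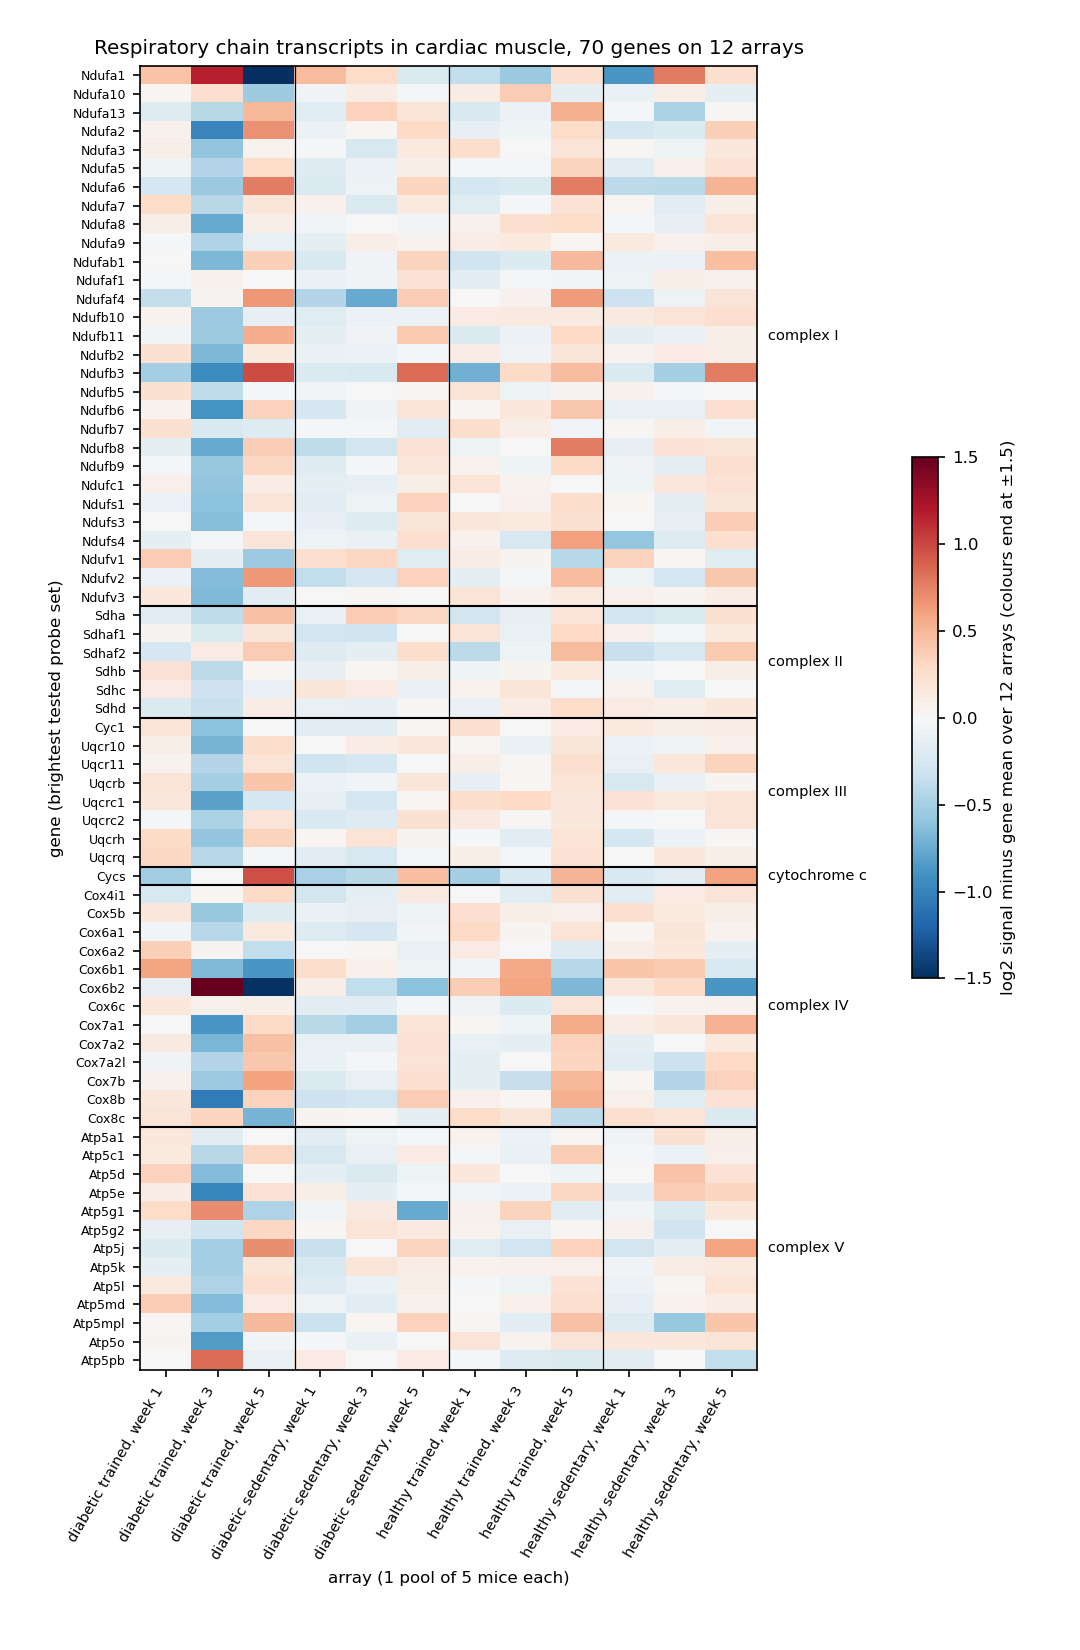
Heat map of 70 respiratory chain genes (down, by complex) on 12 arrays (across), as log2 signal minus the gene's mean over the arrays. The column of diabetic trained week 3 is blue in most genes (median −0.48), and the 4 columns of week 5 are red in most (medians 0.10 to 0.21).

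**Figure D2:**
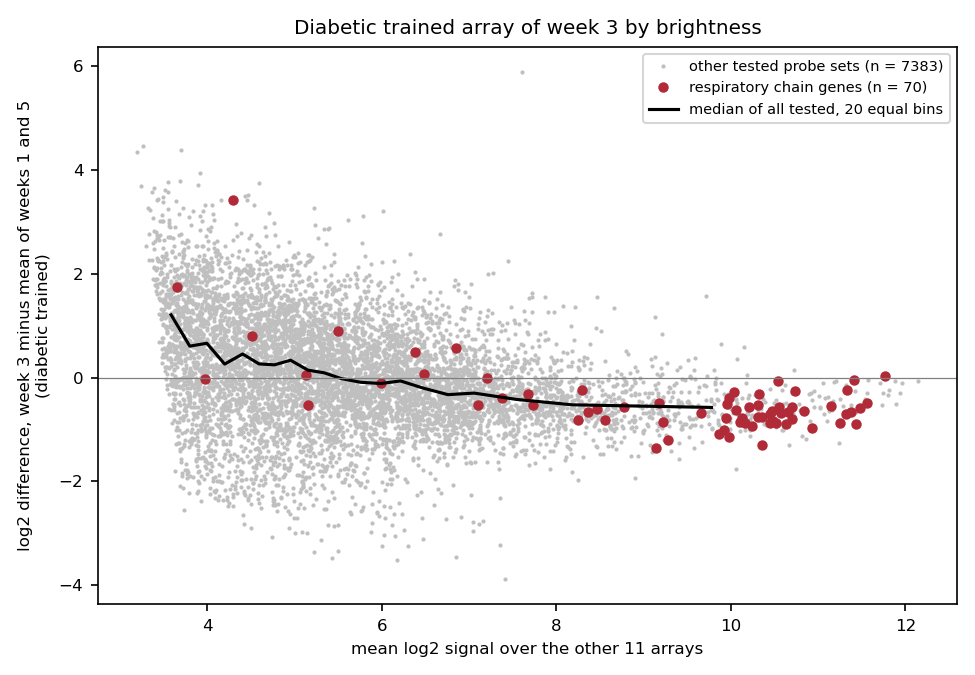
Log2 difference of diabetic trained week 3 from the mean of weeks 1 and 5 of that condition (vertical) against the mean log2 signal over the other 11 arrays (horizontal), for all tested probe sets (grey), 70 respiratory chain genes (red) and the running median of all tested (line). The median falls with brightness to −0.45 in the brightest of 4 classes of equal size, where 60 of the 70 genes lie.

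The comparison of all diabetic with all healthy hearts asks whether streptozotocin diabetes was accompanied by altered respiratory chain transcripts over both training states. No member passed the threshold (0 of 83 probe sets, limma with Benjamini-Hochberg adjustment), against 57 of all probe sets tested (0.765%). At an unadjusted p under 0.05 there were 10 of 70 genes, all with lower signals in diabetic hearts, against 11.8% of all tested probe sets and 6.92% in that direction. Among the brightest probe sets 11.9% were lower at that level. The median member stood at −0.09 on the log2 scale, with 53 of 70 below 0, against −0.02 for all tested and −0.05 for the brightest. Without the array of diabetic trained week 3, the median member stood at −0.04 with 44 of 70 below 0, 0 of 83 probe sets passed (2.07% of all tested), and 13 genes had an unadjusted p under 0.05, 4 higher and 9 lower, against 15.7% of all tested.

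Complex I had a median difference of −0.12 between diabetic and healthy hearts, with 21 of 29 genes below 0, and −0.04 without diabetic trained week 3. Ndufb10, an accessory subunit of the membrane arm, had the smallest p of the complex. Its signals were 997, 661 and 884 in diabetic trained and 844, 900.5 and 902 in diabetic sedentary hearts at weeks 1, 3 and 5, against 1046, 1054 and 1059 in healthy trained and 1053, 1101 and 1142 in healthy sedentary hearts. Every diabetic array lay below every healthy array, and the means were 865 ± 112 against 1076 ± 38.0 (SD, n = 6 each). Its log2 difference was −0.33 ± 0.11 (SE), with an adjusted p of 0.247, and −0.24 with an adjusted p of 0.129 without diabetic trained week 3. Ndufs3, a core subunit of the arm that reduces ubiquinone, had a lowest, median and highest signal of 662, 975 and 1164 in diabetic hearts, against 940, 1146 and 1327 in healthy hearts, and the groups overlapped (log2 difference −0.27 ± 0.11, adjusted p = 0.371). Ndufb8, another membrane arm subunit, stood at −0.32 ± 0.14 (adjusted p = 0.412), and at −0.19 without that array.

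Complex II showed no common direction, with 4 of 6 genes below 0 and a median of −0.04, and 2 of 6 and 0.02 without diabetic trained week 3. Sdhd, which anchors the complex in the membrane, had a lowest, median and highest signal of 815, 943 and 1107 in diabetic hearts, against 952, 1110 and 1236 in healthy hearts (log2 difference −0.22 ± 0.10, adjusted p = 0.408). Sdha, the flavoprotein that oxidises succinate, stood at 0.16 with the array of diabetic trained week 3 and at 0.24 without it (adjusted p = 0.247), with 159, 224 and 281 in diabetic against 170, 184 and 243 in healthy hearts. Sdhaf1, which helps to insert the iron-sulfur clusters of Sdhb, stood at −0.19 (adjusted p = 0.462).

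Complex III had a median of −0.17, with 6 of 8 genes below 0, and −0.09 without diabetic trained week 3. Uqcrc1, a core protein of the complex, had signals of 1397, 710 and 1037 in diabetic trained and 1137, 1036.5 and 1255 in diabetic sedentary hearts at weeks 1, 3 and 5, against 1489, 1527 and 1381 in healthy trained and 1448, 1380 and 1419 in healthy sedentary hearts. Diabetic trained week 1 alone reached the healthy range, and diabetic trained week 3 was the lowest array. The log2 difference was −0.42 ± 0.13 (adjusted p = 0.200), and −0.31 (adjusted p = 0.115) without diabetic trained week 3. It passed the threshold in 1 alternative, in which diabetic trained week 1 was left out (−0.54, adjusted p = 0.0478). Uqcr11, a small subunit, stood at −0.25 ± 0.11 (adjusted p = 0.410), and at −0.17 without that array. Cyc1, which carries the haem of cytochrome c1, had a lowest, median and highest signal of 1611, 2327 and 2826 in diabetic against 2471, 2661 and 2901 in healthy hearts, and 2198.5 was the lowest diabetic signal apart from diabetic trained week 3. Its log2 difference was −0.24 with that array and −0.14 without it. Cycs, the mobile carrier cytochrome c, stood at −0.01 with the array and at −0.02 without it.

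Complex IV had a median of −0.07 with 11 of 13 genes below 0, and −0.09 without diabetic trained week 3. Cox7a1, the muscle form of subunit 7a, had the smallest p of all members. Its signals were 910, 501.5 and 1118 in diabetic trained and 695, 643 and 1049 in diabetic sedentary hearts at weeks 1, 3 and 5, against 931, 877 and 1348 in healthy trained and 989, 1032 and 1311 in healthy sedentary hearts. Within each week both diabetic arrays lay below both healthy arrays, while week 5 was high in every condition, so that the groups overlap when weeks are pooled. The log2 difference was −0.44 ± 0.12 (adjusted p = 0.156), and −0.32 (adjusted p = 0.0674) without diabetic trained week 3. It passed the threshold after cyclic loess (−0.37, adjusted p = 0.0392), where 1.34% of all tested probe sets did, and, without diabetic trained week 3, after cyclic loess (−0.34, adjusted p = 0.0448) and after quantile normalization (−0.35, adjusted p = 0.0449), where 2.31% and 2.16% did. Those settings without the array were added after seeing the data. Cox5b, which binds zinc at the matrix face, stood at −0.30 ± 0.11 (adjusted p = 0.304), and Cox6a1, the common form of subunit 6a, at −0.27 ± 0.11 (adjusted p = 0.358).

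Complex V had a median of −0.08 with 10 of 13 genes below 0, and of 0.01 with 6 below 0 without diabetic trained week 3. Atp5o, the subunit that joins the stalk to the catalytic head, had signals of 1398, 762 and 1325 in diabetic trained and 1327, 1270 and 1361 in diabetic sedentary hearts at weeks 1, 3 and 5, against 1554, 1409 and 1556 in healthy trained and 1516, 1520 and 1557 in healthy sedentary hearts. All diabetic arrays were below all healthy arrays, and diabetic trained week 3 was far below the rest. The log2 difference was −0.32 ± 0.13 (adjusted p = 0.344), and −0.19 (adjusted p = 0.185) without that array. Atp5pb, another stalk subunit, stood at 0.32 ± 0.16 (adjusted p = 0.480), and at 0.18 without diabetic trained week 3.

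Signals of Ndufb10 and Atp5o did not overlap between diabetic and healthy hearts with or without the array of diabetic trained week 3, which held for 2 of 83 member probe sets, against 0.617% of all tested with all arrays and 0.859% without that one. No member was higher on every diabetic array, against 0.389% and 1.15%. In the 6 week-matched pairs of 1 diabetic and 1 healthy array, 15 of 70 genes were lower in the diabetic array each time and 0 were higher each time, against 5.73% and 2.94% of all tested probe sets. These 15 were Ndufa3, Ndufa5, Ndufb7, Ndufb10, Ndufs3 and Ndufv3 of complex I, Sdhd and Sdhaf1 of complex II, Cyc1, Uqcr11 and Uqcrc1 of complex III, Cox5b, Cox6a1 and Cox7a1 of complex IV, and Atp5o of complex V. In the 5 pairs without diabetic trained week 3, 15 genes were lower each time and 5 higher, against 8.45% and 7.16% of all tested. These shares of pairs and of arrays without overlap were not counted among the brightest probe sets alone, where most members lie. By complex, the medians of the pairs were most negative for diabetic trained against healthy trained at week 3 (−0.50, −0.35, −0.51, −0.44 and −0.34 for complexes I to V), and at week 1 of the same conditions they were 0.01, 0.09, 0.02, 0.08 and 0.11. In sedentary hearts at week 3, where neither array stood apart, complexes III and IV stood at −0.23 and −0.22, and I, II and V at 0.01, 0.07 and −0.02.

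**Figure D3:**
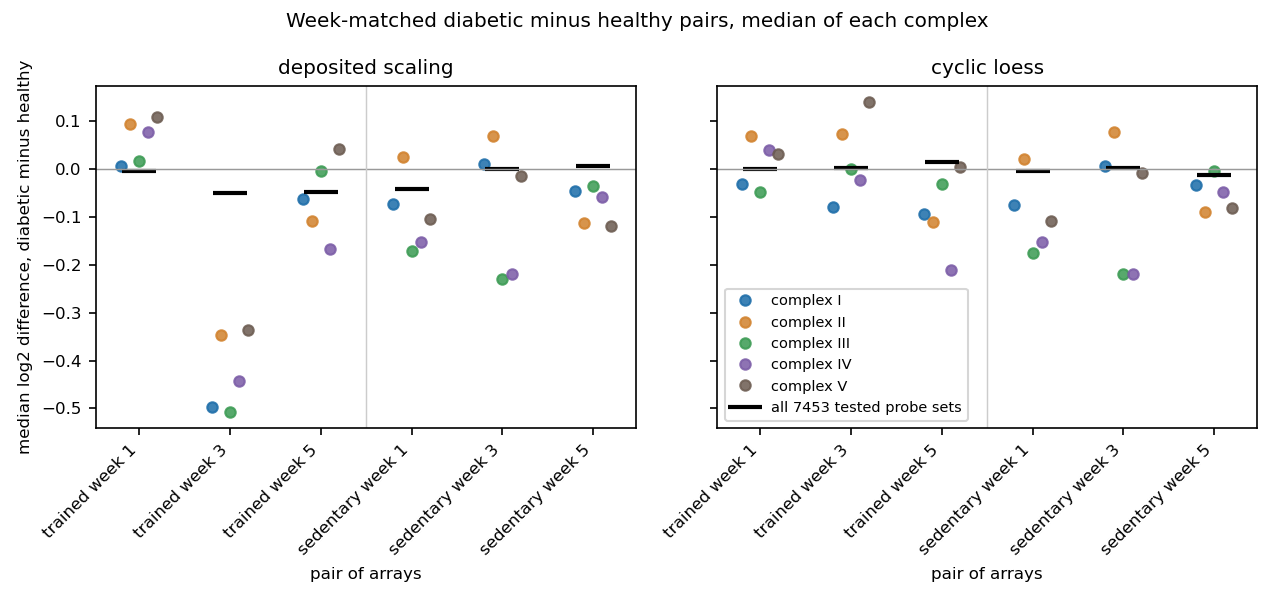
Median log2 difference, diabetic minus healthy, of complexes I to V in the 6 week-matched pairs of arrays, on the deposited scale (left) and after cyclic loess (right), with the median of all tested probe sets as bars. Trained week 3 lies between −0.51 and −0.34 on the deposited scale and between −0.08 and 0.14 after cyclic loess.

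Summed marker signals of the cell types that cardiac tissue can hold stand beside these values. The summed signal of 11 cardiomyocyte markers ranged from 27224 to 36936 in diabetic hearts, against 29620 to 37184 in healthy hearts, and that of 9 endothelial markers from 1058 to 1613 against 1314 to 1815. For 9 fibroblast markers the sums were 2859 to 3647 against 3100.0 to 3675, and for 9 macrophage and neutrophil markers 367 to 849 against 488 to 786. For 5 adipocyte markers they were 156 to 274 against 108.5 to 216, for 3 erythroid markers 2137 to 3462 against 2204 to 3668, for 4 smooth muscle markers 220.0 to 282 against 235 to 369, and for 6 skeletal muscle markers 529 to 1524 against 1087 to 1582. The ranges overlapped for all 8 lists. Under the highest absent control lay 0 of the cardiomyocyte, 3 of the macrophage and neutrophil, 1 of the adipocyte, 1 of the smooth muscle and 3 of the skeletal muscle markers. Aqp1, a water channel of capillary endothelium, fell in diabetic hearts by 1.29 ± 0.21 on the log2 scale (adjusted p = 0.0260), and Ckm, the muscle creatine kinase, which heart muscle also makes, fell by 0.53 ± 0.11 (adjusted p = 0.0461), while 0 of 11 cardiomyocyte markers passed. In whole tissue, fewer cells of a type and less RNA per cell cannot be told apart, and the part of these markers in the results was not tested.

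Training was compared over both disease states. No member passed the threshold (0 of 83, limma with Benjamini-Hochberg adjustment), as for all probe sets tested (0%). At an unadjusted p under 0.05 there was 1 of 70 genes, against 3.45% of all tested. This was Ndufaf4, a complex I assembly factor, with signals of 49.7 to 100.3 in trained against 37.9 to 82.6 in sedentary hearts, a log2 difference of 0.34 ± 0.14 and an adjusted p of 0.998. The medians of complexes I to V were −0.00, −0.02, 0.01, 0.03 and −0.00, and 33 of 70 genes were above 0. Without diabetic trained week 3 the medians were 0.09, 0.04, 0.11, 0.08 and 0.04, 55 of 70 genes were above 0, and 7 genes had an unadjusted p under 0.05, all higher in trained hearts, against 5.6% of all tested. The smallest p of these 7 was that of Uqcrb, a subunit of complex III, with 0.21 ± 0.07 and an adjusted p of 0.880, against 0.08 with all arrays. Cytochrome c itself stood at 0.08 ± 0.10 with all arrays and at 0.06 without that one. Ndufv1, the NADH-binding core subunit of complex I, stood at −0.19. Cox6b1 stood at −0.28, and at −0.13 without diabetic trained week 3, and Atp5g1, which encodes the proton-carrying subunit c, at 0.25 and at 0.16 without it, none past the threshold. The other tested probe set of Atp5g1 went the other way, at −0.18, and at −0.53 without that array, and did not pass either.

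The comparisons within 1 training or disease state called no member either (0 of 83 each, limma with Benjamini-Hochberg adjustment). Of all tested probe sets, the share called was 0.0268% for diabetic trained against healthy trained, 0.0537% for diabetic sedentary against healthy sedentary, and 0% for diabetic trained against diabetic sedentary, healthy trained against healthy sedentary and the interaction of diabetes with training. At an unadjusted p under 0.05 the members held 5, 1, 0, 0 and 0 of 70 genes in these comparisons, in the same order, against 10.5%, 7.33%, 7.15%, 2.04% and 4.31% of all tested. Without diabetic trained week 3 there were 5 genes for diabetic trained against healthy trained, 3 higher and 2 lower (8.92% of all tested), 11 for diabetic sedentary against healthy sedentary, 1 higher and 10 lower (13.7%), and 2 for the interaction, both higher (4.75%). Diabetic trained against healthy trained hearts had a median member of −0.13, and 0.00 without diabetic trained week 3 or, with it, −0.00 after cyclic loess. In this comparison Uqcrc1 stood at −0.54 ± 0.19 (adjusted p = 0.415), and at −0.30 without that array. Diabetic sedentary against healthy sedentary hearts had a median of −0.07, with complexes I to V at −0.04, 0.01, −0.17, −0.11 and −0.08. Cox7a1 had the lowest adjusted p there without diabetic trained week 3 (0.055, where 0.805% of all tested passed; with all arrays −0.50 ± 0.18, adjusted p = 0.488). It passed under array weights, which gave that array a weight of 0.107 (−0.52, adjusted p = 0.0337, where 2.12% of all tested passed). Trained against sedentary hearts had a median of −0.04 in diabetic mice (0.11 without diabetic trained week 3) and 0.04 in healthy mice. Without that array, 9 genes were higher in diabetic trained than in diabetic sedentary hearts at an unadjusted p under 0.05 and 0 were lower, against 5.13% of all tested. These comparisons share arrays in pairs, so that their values are not independent of each other. The interaction of Cycs was 0.44 ± 0.21 (adjusted p = 0.859).

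At week 5 against week 1, 16 of 83 member probe sets passed (19.3%, limma with Benjamini-Hochberg adjustment), against 15.4% of all tested probe sets and 26% of the brightest 1864. They stood for 15 genes, of which 13 rose at week 5 and 2 fell, against 8.47% higher and 6.9% lower of all tested and 14.3% and 11.7% of the brightest. The median member stood at 0.15, with 51 of 70 above 0, against −0.10 for all tested and 0.01 for the brightest. At an unadjusted p under 0.05 there were 25 genes, 21 higher and 4 lower, against 32.6% of all tested. The medians of complexes I to V were 0.18, 0.18, 0.15, 0.10 and 0.12, and cytochrome c stood at 1.06. The complex IV median was −0.14 without probe sets of the _f_at kind, which can match related sequences. With each array centred on its median, all tested stood at 0.07, the 5 complexes between 0.27 and 0.35, and 9 member probe sets passed, all higher. Without diabetic trained week 3 the log2 differences are the same and the spread is smaller, and 36 probe sets of 33 genes passed, 28 genes higher and 5 lower, against 32.3% of all tested, 15% higher and 17.3% lower. Leaving out 1 array gave 3 to 36 probe sets, with 3 without healthy trained week 1, 4 without its week 5 and 4 without diabetic trained week 5. Since week 5 had its own chip lot and scan day, week and lot cannot be told apart in any of these values.

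Cycs had the smallest p of the members. Its signals at week 5 were 610 in diabetic trained, 427 in diabetic sedentary, 446 in healthy trained and 477 in healthy sedentary hearts, against 219, 222.5, 222 and 268 in the same conditions at week 1. All 4 arrays of week 5 were above all arrays of weeks 1 and 3, and the means of weeks 1, 3 and 5 were 233 ± 23.4, 274 ± 31.4 and 490 ± 82.8 (SD, n = 4 each). It rose at week 5 by 1.06 ± 0.13 on the log2 scale (limma, adjusted p = 0.00147), and by 1.06 ± 0.11 (adjusted p = 0.000427) without diabetic trained week 3.

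In complex I, 6 of 29 genes rose at week 5 and 1 fell, and 13 rose and 1 fell without diabetic trained week 3. Ndufa6, an accessory subunit of the matrix arm, had signals of 619.5, 454, 620 and 518 at week 5 in diabetic trained, diabetic sedentary, healthy trained and healthy sedentary hearts, against 305, 313, 304 and 277 at week 1 (log2 difference 0.87 ± 0.14, adjusted p = 0.0049). Ndufb3, a membrane arm subunit, had 1156, 1043, 805 and 998 at week 5, against 411, 509, 356 and 503 at week 1 in the same order of conditions (1.17 ± 0.23, adjusted p = 0.0099). Both genes were high on every week 5 array, and the arrays of weeks 5 and 1 did not overlap. Ndufv2, which carries an iron-sulfur cluster beside the NADH site, rose by 0.63 ± 0.15 (adjusted p = 0.0165), Ndufab1, the mitochondrial acyl carrier protein, by 0.56 ± 0.15 (adjusted p = 0.0292), Ndufb8 by 0.56 ± 0.17 (adjusted p = 0.0495) and the assembly factor Ndufaf4 by 0.74 ± 0.17 (adjusted p = 0.0159). A second probe set of Ndufv2 also passed, with 0.50.

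Ndufv1, the partner of Ndufv2 in the NADH-oxidising flavoprotein, moved the other way. Its signals were 1017, 1306.5, 1101.5 and 1309 at week 5 in diabetic trained, diabetic sedentary, healthy trained and healthy sedentary hearts, against 1929, 1766, 1603 and 1858 at week 1. The means of weeks 1, 3 and 5 were 1789 ± 141, 1551 ± 203 and 1184 ± 148 (SD, n = 4 each), and the week 5 arrays were below every array of week 1. Ndufv1 fell by 0.60 ± 0.13 on the log2 scale (adjusted p = 0.0125).

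In complex II, Sdha rose by 0.50 ± 0.15 (adjusted p = 0.0396), with 281, 256, 238 and 243 at week 5 in diabetic trained, diabetic sedentary, healthy trained and healthy sedentary hearts, against 185, 191, 171 and 170.1 at week 1. Sdhaf2, which attaches the flavin to Sdha, rose by 0.67 ± 0.17 (adjusted p = 0.0251), with signals of 42.4 to 49.4 at week 5 against 27.0 to 30.9 at week 1. The iron-sulfur subunit Sdhb stood at 0.10 and the membrane anchors Sdhc and Sdhd at −0.16 and 0.22, none past the threshold. No gene of complex III passed with all arrays (0 of 8), and 2 passed without diabetic trained week 3, Uqcrb (0.27, adjusted p = 0.0191) and Uqcr11 (0.26, adjusted p = 0.0380), whose adjusted p with all arrays were 0.244 and 0.196. Its Cyc1 stood at −0.05 and its Uqcrc1 at −0.11, with signals of 1037 to 1419 at week 5 against 1137 to 1489 at week 1. A dimmer probe set of Cyc1 stood at −0.41 and did not pass, with or without diabetic trained week 3.

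In complex IV, 2 of 13 genes rose at week 5 and 1 fell, and 6 rose and 4 fell without diabetic trained week 3. Cox7b, a small accessory subunit, had 2140.5, 1687, 1992 and 1792 at week 5 in diabetic trained, diabetic sedentary, healthy trained and healthy sedentary hearts, against 1479, 1216, 1280.2 and 1446 at week 1 (0.49 ± 0.14, adjusted p = 0.0405). Cox7a2l, a factor that helps complexes III and IV join in supercomplexes, rose by 0.42 ± 0.13 (adjusted p = 0.0481). Cox8c, a form of subunit 8 known from testis, fell by 0.55 ± 0.15 (adjusted p = 0.0347), with signals of 72.5 to 106.7 at week 5 against 121.0 to 142.1 at week 1. Of the muscle forms, Cox7a1 stood at 0.46 (adjusted p = 0.0628), the brightest probe set of Cox8b at 0.37 (adjusted p = 0.196) and Cox6a2 at −0.35 ± 0.13 (adjusted p = 0.0842). Of the common forms, Cox7a2 stood at 0.35 (adjusted p = 0.173) and Cox6a1 at 0.06 (adjusted p = 0.764). Cox4i1, the common form of subunit 4, stood at 0.38 (adjusted p = 0.0575) by its brightest probe set, which is of the _f_at kind. The other tested probe set of Cox4i1 stood at −0.14 and did not pass, with or without diabetic trained week 3. Without diabetic trained week 3, Cox7a1 (adjusted p = 0.0043), Cox7a2 (0.0096), Cox8b (0.0179), Cox6a2 (0.0195) and Cox4i1 (0.0227) passed, and of these 5 only Cox6a2 was lower at week 5. Its mean signals at weeks 1, 3 and 5 were 3899 ± 417, 3635 ± 186 and 3046 ± 232 (SD, n = 4 each).

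In complex V, 2 of 13 genes rose at week 5, and 4 without diabetic trained week 3. Atp5j, coupling factor 6 of the stalk, had 2000, 1538, 1568 and 1858 at week 5 in diabetic trained, diabetic sedentary, healthy trained and healthy sedentary hearts, against 1066, 975, 1088 and 1015 at week 1 (0.74 ± 0.15, adjusted p = 0.0097). Atp5mpl, a small proteolipid of the membrane part, rose by 0.54 ± 0.15 (adjusted p = 0.0338). The groups did not overlap for Atp5j. Of the 24 alternatives with a value for week 5, Cycs, Ndufa6 and Atp5j passed in all, Ndufb3 missed the threshold in 2, Ndufv1 and Ndufaf4 in 4 each, the brighter and the other probe set of Ndufv2 in 5 and 9, Sdhaf2 in 7, Ndufab1 and Atp5mpl in 9 each, Sdha, Cox7b, Cox8c and Ndufb8 in 12 each and Cox7a2l in 13.

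**Figure D4:**
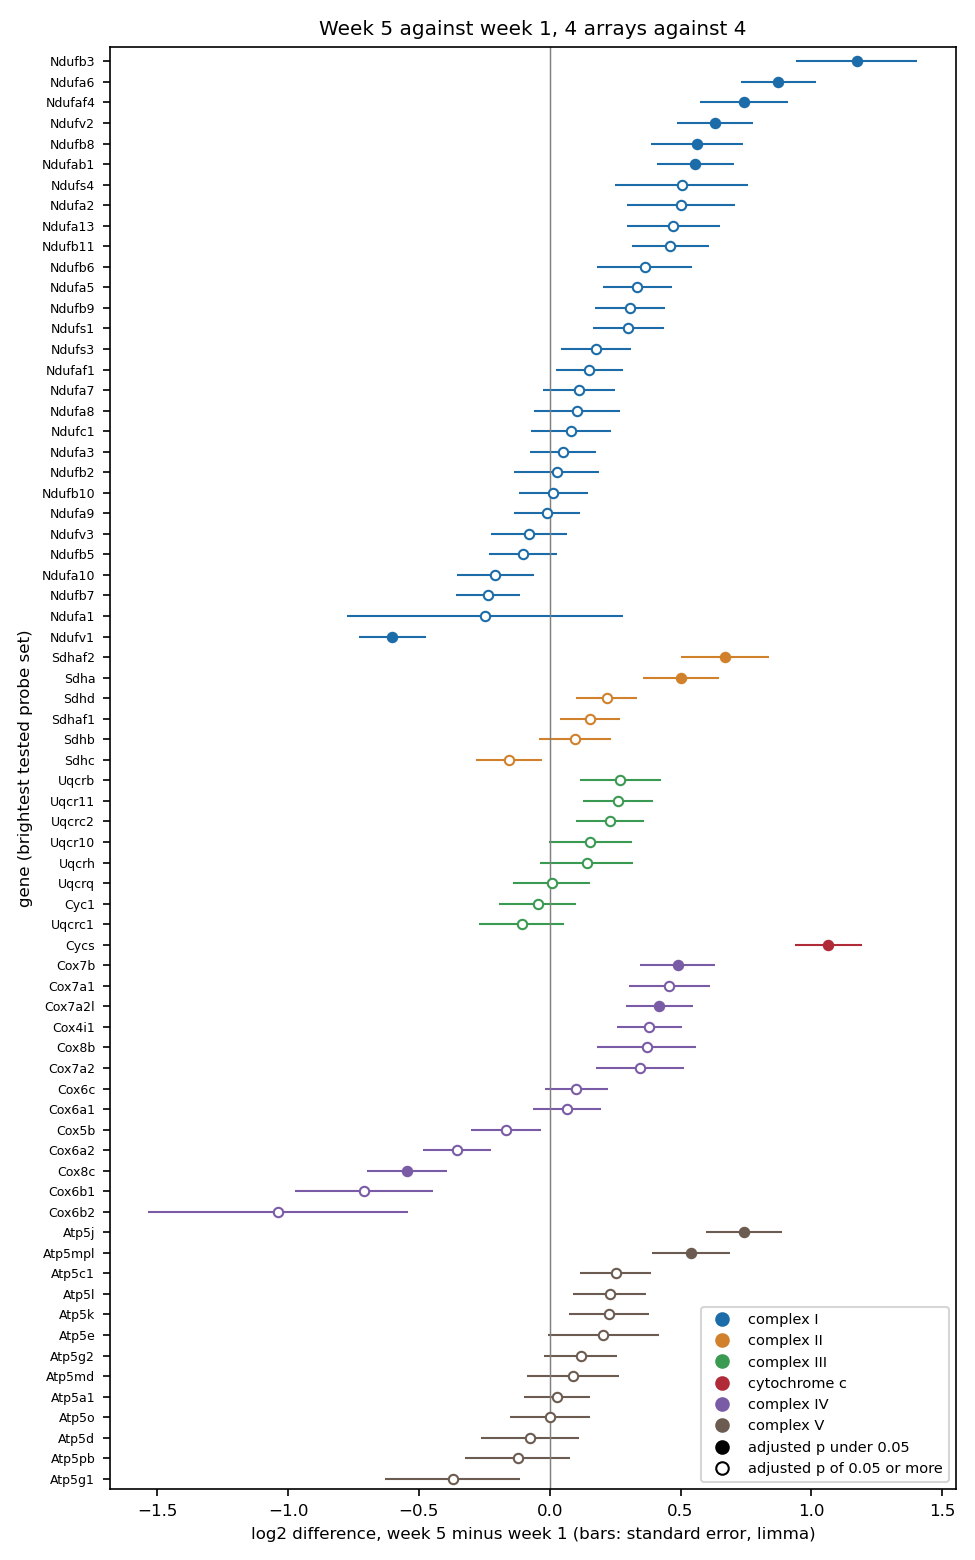
Log2 difference of week 5 from week 1 for 70 respiratory chain genes by complex, with the standard error of limma as bars and filled points for an adjusted p under 0.05. Cycs (1.06), Ndufb3 (1.17) and Ndufa6 (0.87) lie farthest to the right among the filled points, and Ndufv1 (−0.60) and Cox8c (−0.55) are the 2 filled points left of 0.

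**Figure D5:**
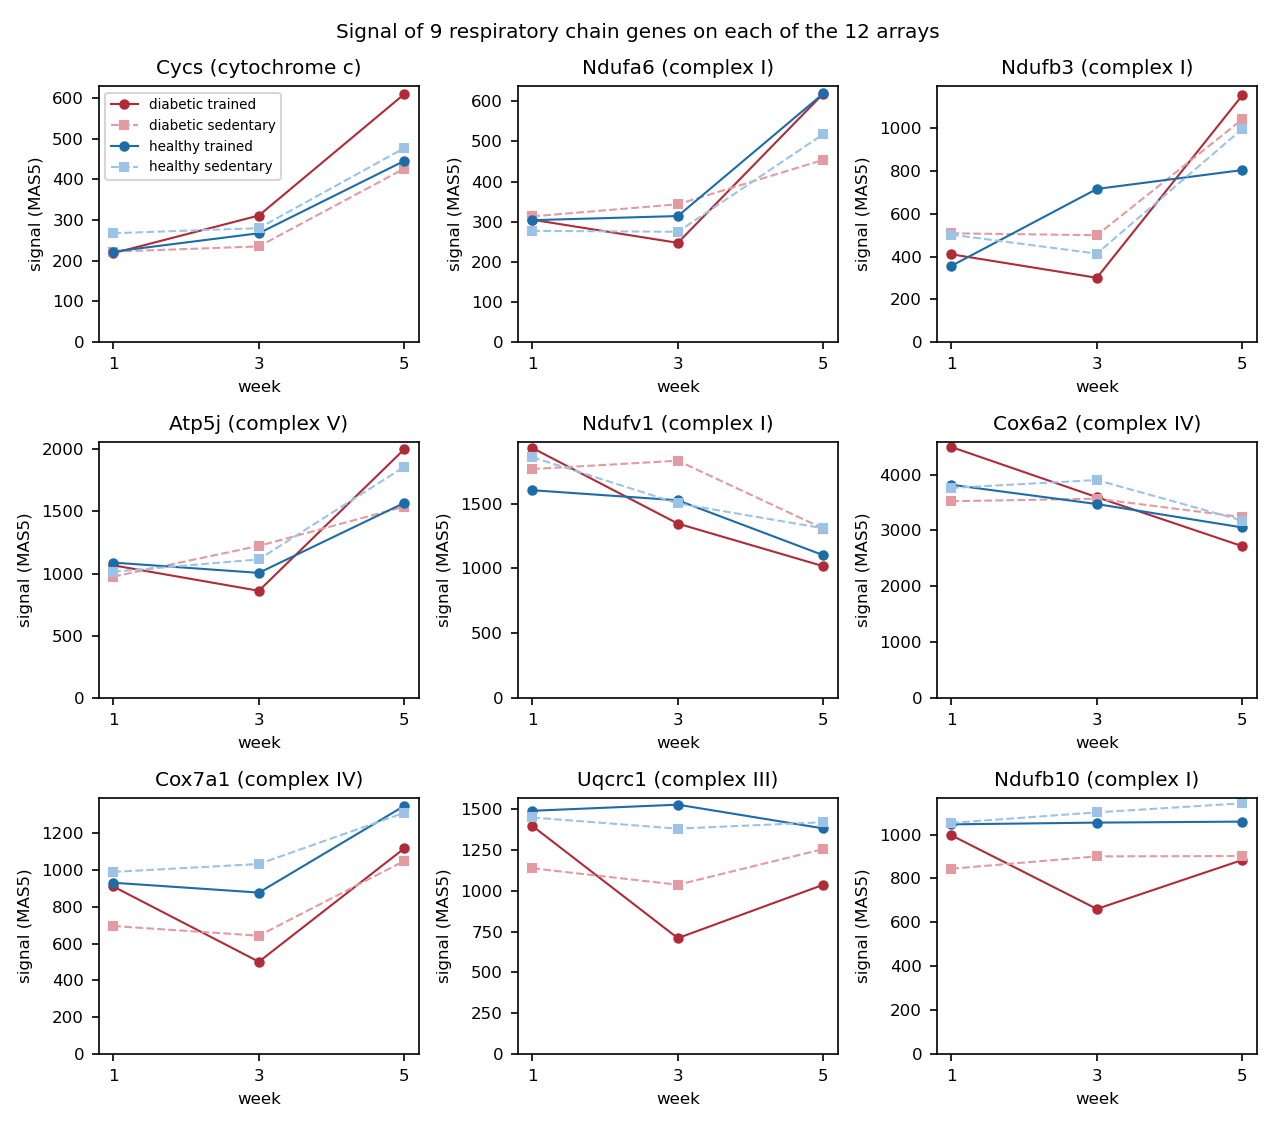
Signal on each of the 12 arrays for 9 genes against week, with 1 line for each condition. Cycs, Ndufa6, Ndufb3 and Atp5j are high at week 5 in all 4 conditions and Ndufv1 and Cox6a2 low, while in Cox7a1, Uqcrc1 and Ndufb10 the red lines of diabetic hearts lie mostly below the blue lines of healthy hearts.

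Over the 4 pairs of 1 condition at weeks 5 and 1, 36 of 70 genes were higher at week 5 each time and 8 lower each time, against 21.7% and 27.4% of all tested probe sets. The 4 arrays of week 5 did not overlap those of week 1 in 30 of 83 member probe sets that were higher and 7 that were lower, against 14.9% and 16.4% of all tested. None of these shares was counted among the brightest probe sets alone, where most members lie, so that brightness may account for the gap. The median member stood at 0.12 in diabetic trained, 0.22 in diabetic sedentary, 0.22 in healthy trained and 0.20 in healthy sedentary hearts, where all tested probe sets stood at −0.15, −0.02, −0.09 and −0.07. At week 3 against week 1 no member passed (0 of 83, 0% of all tested). The median was −0.13 with 53 of 70 genes below 0, and 0.02 with 32 below 0 without diabetic trained week 3. At an unadjusted p under 0.05 there was 1 gene, Ndufa3, against 7.11% of all tested.

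Markers and controls also differed between the weeks. The summed cardiomyocyte signal was 27224 to 30413 at week 5 against 27917 to 36936 at week 1, and the endothelial sum 1058 to 1387 against 1314 to 1815, the fibroblast sum 3427 to 3675 against 3100.0 to 3479 and the macrophage and neutrophil sum 598.5 to 849 against 521 to 683. The adipocyte sum was 108.5 to 176 against 183 to 268, the erythroid sum 2204 to 2390 against 2284 to 3668, the smooth muscle sum 220.0 to 348 against 280 to 369 and the skeletal muscle sum 598 to 1535 against 746 to 1524. The ranges overlapped for 7 of the 8 lists, and the adipocyte sum was lower on every week 5 array. The signal of the 3′ control probe set of 18S ribosomal RNA was 1395 to 3809 at week 5 against 80.9 to 439 at week 1. The middle probe set had 93.7 to 273.7 against 2.7 to 86.7. For the 5′ probe set the weeks overlapped, with 68.9 to 456.3 against 17.6 to 173.1. Of single markers, 0 of 11 for cardiomyocytes passed, Kdr (0.64) and Lum (0.74) rose, and Eng (−0.79), Col1a1 (−1.36), Lipe (−0.92) and Myh11 (−1.03) fell, where 15.4% of all tested probe sets passed. The part of these differences in the week values was not tested.

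Genes that feed or regulate the chain were set beside it at week 5 against week 1. In this comparison 15.4% of all tested probe sets passed, and 26% of the brightest 1864. Week 5 cannot be told apart from its chip lot and scan day here either. Of 17 genes of pyruvate oxidation and the citric acid cycle, 15 were tested, and Dld (0.98, adjusted p = 0.00232), Sucla2 (0.54), Dlat (0.53) and Pdha1 (0.49) rose while Idh3a (−0.52) fell, with a median of 0.08. Dld, Dlat and Pdha1 encode the parts of the pyruvate dehydrogenase complex that feed acetyl-CoA into the cycle. Of 15 genes of electron entry, carriers and energy transfer, 13 were tested, and the outer membrane channels Vdac2 (0.59) and Vdac3 (0.68) and the electron carrier Etfa (0.73) rose, with a median of −0.11. Of 22 assembly and import partners, 7 were tested and 1 rose, Sdhaf2, counted above. Of 20 regulators, 12 were tested. Gabpa, an ETS factor, rose by 1.29 ± 0.20 (adjusted p = 0.00377), and Sp1 (−1.04), Ppara (−0.87) and Esrra (−0.42) fell, with a median of −0.27. In diabetic against healthy hearts, Ucp3, a mitochondrial carrier, rose by 0.93 ± 0.18 (limma, adjusted p = 0.0449), and no other gene of these 4 lists passed, against 0.765% of all tested. The median of the citric acid cycle list was −0.14. Of the 13 member genes that rose at week 5, among them Ndufaf4, Sdhaf2 and Cox7a2l, which are no subunits, 12 had a RefSeq promoter. The NRF1 core was in 3 of these 12, against 11 of all 61 members with a promoter. TGACGTCA was in 1 (against 3 of 61), TGACG in 3 (23 of 61) and CCGGAAG in 2 (18 of 61). GGGCGG was in 9 (31 of 61) and CCAAT in 5 (26 of 61). A link between these letters and the rise was not tested.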

How the data were processed

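The authors deposited linear signal intensity values per probe set, made with the Affymetrix MAS5 software per the submitters' processing notes. The software version was not given in the sources used here. The intensities were floored at the table's 20th percentile (signal 4.1) and taken to log2, and probe sets with a mean below the 40th percentile and 66 control probe sets were left out. limma 3.58.1 in R 4.3.3 fitted condition and week as factors over all 12 arrays (lmFit, eBayes with trend, 6 residual degrees of freedom), and p-values were adjusted by Benjamini-Hochberg over 7453 probe sets at 0.05. The week serves as the replicate number and as the block, since the series' design text has the sedentary mice of a week killed together with the trained mice of that week. Chip lots, scan days and modules were read from the scanner's experiment files.

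Members and gene lists were chosen with earlier results of these data known. Named genes are those past the threshold, in each complex the 2 with the smallest p for diabetes and for training, and the muscle and common isoforms, with other complex II subunits. Genes came from the array annotation, with several probe sets represented by the brightest. The fit was tested on simulated data. With 1 array for each condition and week, the number of arrays limits the precision. Alternatives covered normalization (quantile, cyclic loess, median centring), floor, filter, trend, array weights, chip lot as block, no block, leaving out each array or week, only the conditions compared, and probe set choice. Isoform proteins were not compared here. Figures were drawn with matplotlib 3.10.9.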

Additional observations from a re-analysis of the deposited data

Results flagged for a closer look

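Complex I on the array of diabetic trained week 3 stood at −0.56 (median log2 signal minus gene mean), far below the other 3 arrays of week 3, at −0.06 for diabetic sedentary, −0.00 for healthy trained and −0.08 for healthy sedentary hearts. Cytochrome c on the array of healthy sedentary week 1 stood at −0.22, above the other 3 arrays of week 1, at −0.52, −0.49 and −0.49. The gap to the nearest array made each stand out among 4 arrays by Dixon's criterion, which chance meets in about 1 in 20 groups. Such groups exist for every complex and each week, so that some can meet the criterion by chance. The cytochrome c value rests on 1 gene.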

How the results depend on the processing

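Without the week as a replicate block, the count of members past the threshold was 0 for diabetes and for every other comparison of conditions, as with it. The count for diabetes was 1 after cyclic loess, 0 to 1 with each array or week left out, and 1 after quantile normalization and 1 after cyclic loess without diabetic trained week 3; diabetic sedentary against healthy sedentary gave 1 under array weights and 1 in each of those last settings. Against 16 probe sets for week 5 against week 1, the count was 9 with median centring, 9 with no filter, 8 with no trend, 37 with array weights, and 37 (quantile) and 34 (cyclic loess) without diabetic trained week 3. Leaving out 1 array or week gave 3 to 36: 7 without healthy sedentary week 1 and 9 without its week 5, 6 without diabetic sedentary week 1, 9, 36 and 4 without diabetic trained weeks 1, 3 and 5, 3 and 4 without healthy trained weeks 1 and 5, and 33 without week 3 of all conditions. The week 5 medians of complexes I to V were 0.35, 0.35, 0.32, 0.27 and 0.29 with median centring, and 0.30, 0.074, −0.14 and 0.21 for I, III, IV and V without probe sets of the _f_at kind. Complex III was at 0.10 after cyclic loess with all arrays and 0.10 without diabetic trained week 3, and complex IV at 0.24 after quantile normalization with all arrays, 0.24 without that array and 0.22 with a 60th percentile filter. Other medians that moved were complex I in healthy trained against healthy sedentary hearts (0.10, median centring), complex II at week 3 (0.13, cyclic loess) and cytochrome c in diabetic sedentary against healthy sedentary hearts (−0.17, array weights). With each array or week left out, the diabetic sedentary minus healthy sedentary medians ranged from −0.11 to 0.0069 (I), −0.24 to −0.068 (III), −0.29 to −0.14 (cytochrome c), −0.19 to −0.022 (IV) and −0.20 to −0.0048 (V), the healthy trained minus healthy sedentary medians from 0.016 to 0.12 (I), −0.0056 to 0.14 (III) and −0.054 to 0.049 (IV), and the week 5 medians from 0.054 to 0.26 (III) and 0.037 to 0.28 (V). Of the named genes, 110 values at week 5 missed the threshold in an alternative and 274 did not, and 4 values for diabetes newly passed against 1086 that did not. The causes were not tested. Each condition had 3 pools, and 1 of the arrays, diabetic trained week 3, stood apart.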
